A study of Danio rerio with 2 samples.

Results

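The genes described here are 6 transcription factor genes of the early neural ectoderm of the zebrafish: sox3, sox19b, zic2a, otx1, lhx5 and rx3. They were chosen by their symbols, with earlier results of these data known. All 6 are among the 4591 genes listed in the deposited tables, and all 6 have a mean value of at least 1 over the 2 libraries, as do 3524 of the listed genes. The first library was made from whole Tuebingen embryos injected with 5 ng of a phf14 morpholino, and the other from Tuebingen embryos injected with 5 ng of a standard morpholino. Injection was at the 1-cell stage in both cases, and both groups were collected at 4.7 h after fertilization. Morpholinos are antisense oligomers made by synthesis, and they keep a target transcript from being translated or spliced. PHF14 belongs to the chromatin proteins and recognises histone H3. The title of the series concerns its part in zygotic genome activation, the step at which the embryo begins to transcribe its own genes. Each condition is represented by 1 library, so every difference below lies between these 2 libraries, has no replicate error and has no p-value. The sources used here do not give the number of embryos pooled, and phf14 itself was not analysed here, so the knockdown was not checked. The listed genes are fewer than the annotated genes of the zebrafish, by a selection that the sources do not state, and shares of all genes below refer to the listed genes alone.

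In the blastula and early gastrula, ectoderm that escapes BMP signalling takes on a neural fate, and SoxB1 proteins such as Sox3 are among the first factors to mark it. Sox19b is a SoxB1 protein that the oocyte supplies. In zebrafish it acts together with Pou5f3 and Nanog to open and activate zygotic genes. Zic, Otx, Lhx5 and Rx3 factors then divide the anterior neural plate, with Otx marking the forebrain and midbrain, Lhx5 the anterior forebrain and Rx3 the eye field.

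The deposited values summed to 71136 in the phf14 morpholino library and 75675 in the standard morpholino library over all listed genes. Log2 ratios of the phf14 over the standard morpholino library, computed on values plus 1, had a median of 0.11 across the 3524 genes, with an SD of 0.35. Cut into 10 bins of equal size by level, the genes of the bin with the highest values had a median log2 ratio of -0.15, while the other bins had medians between 0.08 and 0.18. The scale of the values, the depth and whether values are per length are unknown, so values of different genes are ranked or set beside each other below only as deposited, not as transcript abundance. Since whole embryos were sequenced, fewer cells of a type and less RNA per cell cannot be told apart.

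The 6 genes did not move together. In the phf14 morpholino library sox3 stood at 0.743 and zic2a at 0.773 of their values in the standard morpholino library, otx1 stood at 1.52 times its value there, and sox19b, lhx5 and rx3 stood at 1.11, 0.960 and 1.03 times theirs. By count, 3 of the 6 were lower and 3 higher in the phf14 morpholino library, where 37.2% of all 3524 genes were lower and 62.3% higher. After centring on the median gene 4 of the 6 were lower, with 1762 of all genes lower and 1762 higher by construction, and with equal sums 2 of the 6 were lower, with 1067 of all genes lower and 2457 higher. A log2 ratio of at least 0.32 in size was found downward in 2 of the 6, against 11% of all genes, and upward in 1 of the 6, against 24.2% of all genes (387 genes downward and 853 upward as deposited, 652 downward and 485 upward after centring). None of the 6 reached 1.5-fold in either direction on the log2(value + 1) scale as deposited, and so none reached 2-fold. Of all genes 2.84% were at least 1.5-fold lower and 4.94% at least 1.5-fold higher (0.482% and 0.341% at 2-fold). These member counts depend on the settings. Otx1 passed 1.5-fold with 0.1 added in place of 1 (log2 ratio 0.60) and with equal sums (0.65). Zic2a fell short of 0.32 in size with 5 added (-0.25) and with equal sums (-0.26). As deposited, the median log2 ratio of the 6 was -0.01, against 0.11 over all genes. Their SD of 0.36 was about that of all genes (0.35).

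**Figure D1:**
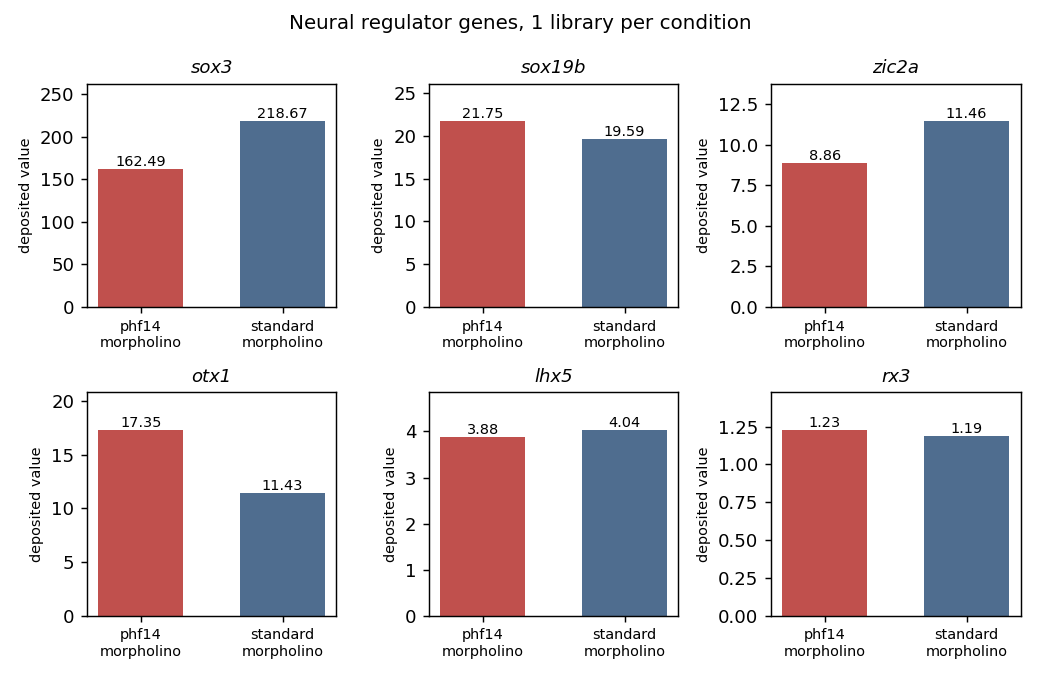
Deposited expression value (vertical axis, unstated scale, starting at 0 and separate for each gene) of the 6 genes in the phf14 morpholino and standard morpholino libraries, 1 bar per library and no error bars because each condition has 1 library. Sox3 (162.49 and 218.67) and zic2a (8.86 and 11.46) were lower in the phf14 morpholino library, otx1 (17.35 and 11.43) was higher, and the other bars nearly match.

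The SoxB genes come first, since they act earliest. The value of sox3 (ENSDARG00000053569), the SoxB1 gene that keeps ectoderm cells in a neural progenitor state, was 162.49 in the phf14 morpholino library and 218.67 in the standard morpholino library. The phf14 morpholino value was the lower, with a difference of -56.18 units and a log2 ratio of -0.43. By value it was the 56th of the listed genes in the phf14 morpholino library and the 44th in the standard morpholino library. Of the 3524 genes 230 had a lower log2 ratio (6.53%). Genes with high values were lower as a class: the 200 genes nearest to sox3 in level, which span means from 45.9 to 733, had a median log2 ratio of -0.18 with an SD of 0.27. Against these, sox3 lay 0.25 below the median, and 20 of the 200 were lower still.

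For sox19b (ENSDARG00000040266) the value was 21.75 in the phf14 morpholino library and 19.59 in the standard morpholino library. The log2 ratio of 0.14 (ratio 1.11) placed this maternal SoxB1 gene close to the median gene of the tables, from which it differed by 0.03. Of the 200 genes nearest in level 121 had a lower log2 ratio and 79 a higher one. The 2 SoxB1 genes among the 6 thus differed from each other by 0.57 in log2 ratio, sox19b above sox3, a difference that no scaling between the libraries changes apart from the pseudocount (0.54 to 0.58 over pseudocounts of 0.1, 1 and 5). As a ratio of deposited values, sox19b stood at 0.134 of sox3 in the phf14 morpholino library and at 0.0896 of it in the standard morpholino library.

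Of the 9 genes in the SoxB list 3 are listed, and the third is sox2, a pluripotency and neural progenitor factor. Its value was 2.57 in the phf14 morpholino library and 3.45 in the standard morpholino library. That is a ratio of 0.745, nearly the 0.743 of sox3, at a far lower deposited value. On the log2(value + 1) scale, which understates changes of low values, its log2 ratio was -0.32. The other genes of the list were not analysed here.

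The zinc finger gene zic2a (ENSDARG00000015554), whose product patterns the neural plate and the forebrain, had a value of 8.86 in the phf14 morpholino library and 11.46 in the standard morpholino library. This is a ratio of 0.773 and a log2 ratio of -0.34. Unlike sox3, zic2a sits among genes that were mostly higher: the 200 genes nearest in level had a median log2 ratio of 0.07 with an SD of 0.40, so zic2a lay 0.41 below it. Its distance from the median of like genes was thus greater than that of sox3 (0.41 against 0.25), whereas by rank 26 of 200 genes lay below zic2a and 20 of 200 below sox3, so neither stood clearly further down for its level. In the RefSeq table of the GRCz12tu assembly zic5, another member of the family, is the protein-coding gene next to zic2a. Its values were low, 0.47 in the phf14 morpholino library and 0.55 in the standard morpholino library, which leaves it under the mean of 1. Only these 2 of the 7 Zic genes in the list are listed in the tables.

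In the opposite direction lay otx1 (ENSDARG00000094992), a bicoid-class homeobox gene of the anterior neural plate, at 17.35 in the phf14 morpholino library and 11.43 in the standard morpholino library. The ratio of the deposited values was 1.52, and the log2 ratio on values plus 1 was 0.56. Of the 3524 genes 202 had a higher log2 ratio (5.73%). Among the 200 genes nearest in level 14 were higher and 186 lower, and otx1 lay 0.44 above their median of 0.12 (SD 0.37). By value it was the 608th of the listed genes in the phf14 morpholino library and the 856th in the standard morpholino library.

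The paralogue otx2a, listed with otx1 among the 8 symbols of the Otx list, did not share this direction. Its value was 11.85 in the phf14 morpholino library and 14.04 in the standard morpholino library, a log2 ratio of -0.23. The 2 Otx genes therefore differed by 0.79 in log2 ratio, and their signs were opposite under each scaling run. The balance of otx1 to zic2a shifted further: the ratio of their deposited values, which no scaling between libraries changes, was 1.96 in the phf14 morpholino library and 0.997 in the standard morpholino library.

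The LIM homeobox gene lhx5 (ENSDARG00000057936), which in zebrafish promotes forebrain development through secreted Wnt antagonists, had a value of 3.88 in the phf14 morpholino library and 4.04 in the standard morpholino library. Its log2 ratio was -0.05, a drop of 3.96% as deposited. Because most genes of its level were higher (median log2 ratio 0.15, SD 0.35), lhx5 lay 0.20 below them, with 55 of the 200 nearest genes lower. Of the 22 LIM homeobox symbols in the list 6 are listed, and 5 of these have a mean of at least 1. Of the 5, 4 were lower and 1 was higher in the phf14 morpholino library, and 2 had a log2 ratio of at least 0.32 in size, both downward. Of all genes 37.2% were lower, and 11% had such a log2 ratio downward. After centring on the median gene all 5 were lower, where 1762 of all 3524 genes were. With equal sums 3 were lower, where 1067 of all genes were. The one with the highest value, lhx1a, a gene of the organizer and axial mesoderm at this stage, was at 18.08 in the phf14 morpholino library and 24.41 in the standard morpholino library (log2 ratio -0.41), so lhx5 lay 0.37 above it. At low values, lhx4 had 0.90 in the phf14 morpholino library and 1.40 in the standard morpholino library, and lhx1b had 1.14 and 1.60 in the same order. The gene lhx8a, known from oocytes and the forebrain, was at 2.18 in the phf14 morpholino library and 1.97 in the standard morpholino library, while isl1, a gene of later motor and sensory neurons, was at 0.14 and 0.12.

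The retinal homeobox gene rx3 (ENSDARG00000052893), which zebrafish need to form eyes, had the lowest deposited values of the 6, 1.23 in the phf14 morpholino library and 1.19 in the standard morpholino library. The log2 ratio was 0.03, below that of the median gene, with 72 of the 200 nearest genes lower. At such values a difference of 0.04 units cannot be told from the unknown counting error. Of the 33 symbols in the list of eye field and anterior neural plate genes, rx3 and tbx2b are listed. The T-box gene tbx2b, with roles in the retina and the pineal, had 1.37 in the phf14 morpholino library and 2.29 in the standard morpholino library (log2 ratio -0.47).

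**Figure D2:**
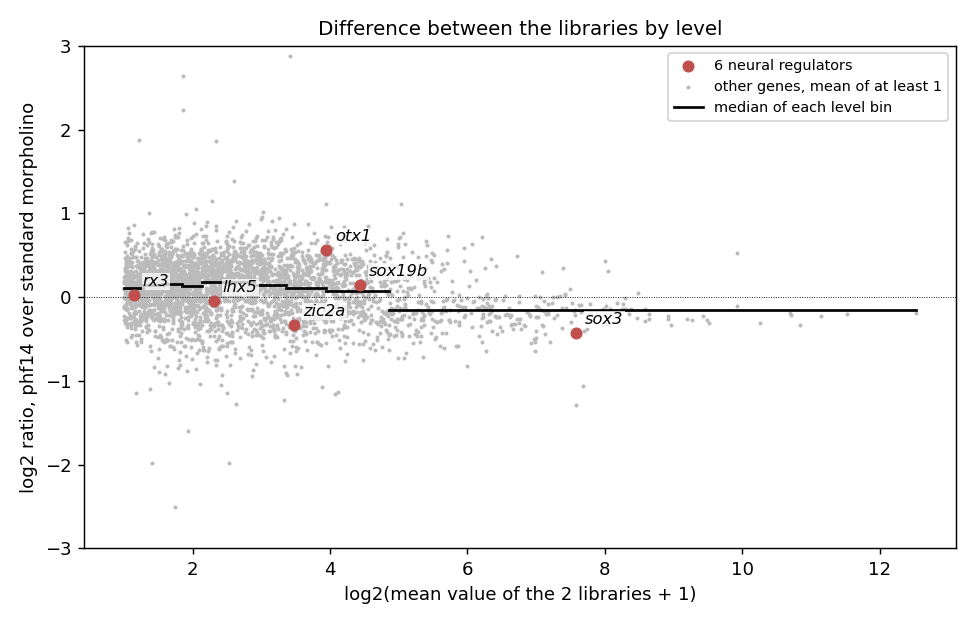
Log2 ratio of the phf14 over the standard morpholino library (vertical axis, on values plus 1) against log2 of the mean value plus 1 (horizontal axis) for the 3524 genes that passed the minimum mean of 1 (grey points), with the median of each of 10 level bins (black lines) and the 6 genes in red. The bin with the highest values lies at -0.15 and sox3 lies below it, zic2a lies below and otx1 above the medians of their bins, sox19b and rx3 lie near the medians of theirs, and lhx5 lies 0.22 below its own.

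Among the 15 pairs that the 6 genes form, the widest difference of log2 ratios was that of otx1 minus sox3, at 0.99, followed by otx1 minus zic2a at 0.90. The order of the log2 ratios, from otx1 through sox19b, rx3, lhx5 and zic2a to sox3, was the same with pseudocounts of 0.1, 1 and 5. Several neighbours in this order were close: zic2a lay 0.09 above sox3, rx3 0.07 above lhx5 and sox19b 0.12 above rx3. All 3 gaps are below the SD of 0.27 to 0.40 seen among genes of their levels.

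The genes nearest to each of the 6 in log2(value + 1) over the 2 libraries came from many functions. For otx1 these were f2rl1.1, a protease-activated receptor gene (17.31 in the phf14 morpholino library and 11.38 in the standard morpholino library), and alkbh5, an RNA demethylase gene (17.23 and 11.84 in the same order). For zic2a they were ppp1r3cb, a phosphatase regulatory subunit gene, and the matrix metalloproteinase gene mmp9 (log2 ratios -0.33 and -0.34). For sox3 they were btf3, a transcription factor gene with a log2 ratio of -0.22, and the keratin gene krt97 with -0.40. The nearest to sox19b were pde7a and larp6b, to lhx5 scamp5a and slc2a10, and to rx3 fam189a1 and dtd2, with log2 ratios between -0.06 and 0.16. With 2 libraries, likeness means only like values.

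Other genes of the neural lists with a mean of at least 1 were mostly lower. Values of whole embryos do not show in which cells these genes were expressed at this stage. The list of pan-neural and posterior neural plate genes has 51 members, of which 13 are listed and 8 have a mean of at least 1. Of these 8, 6 were lower and 2 higher in the phf14 morpholino library, with a median log2 ratio of -0.27 against 0.11 over all genes. The share of lower genes was 37.2% over all genes and 73.1% in the bin with the highest values, to which 2 of the 8 belong. With genes under a mean of 1 kept, 7 of the 13 were lower, against 1664 of all 4591 listed genes, and the median was -0.06. The genes under it, irx5a, sall1b, pou3f3a, fgfr3 and en2b, had values from 0.20 to 1.17. Among these only fgfr3 was lower, and pou3f3a was equal in both libraries. The value of en2b was higher, at 1.17 in the phf14 morpholino library and 0.73 in the standard morpholino library. Irx5a and sall1b were slightly higher, each with a log2 ratio of 0.01. The N-cadherin gene cdh2 was at 14.51 in the phf14 morpholino library and 20.49 in the standard morpholino library (log2 ratio -0.47), and the Iroquois gene irx3a at 7.69 and 10.80 in the same order (-0.44). The exceptions were her5, a hairy-related repressor gene of the midbrain-hindbrain region and the endoderm, and gmnn, which encodes the replication inhibitor geminin. The value of her5 was 20.57 in the phf14 morpholino library and 12.88 in the standard morpholino library, a log2 ratio of 0.64, and that of gmnn was 291.62 and 235.04 in the same order, 0.31. Her5 was thus the one neural gene of the lists with a higher log2 ratio than otx1 on values plus 1. By the ratio of deposited values en2b (1.60), which is under a mean of 1, also lay above otx1 (1.52).

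When the SoxB, Zic, Otx, eye field and pan-neural lists were joined and the 6 genes left out, 11 genes had a mean of at least 1. Of these 9 were lower and 2 higher, against 37.2% and 62.3% of all genes as deposited, with a median log2 ratio of -0.29. A log2 ratio of at least 0.32 in size was found downward in 3 and upward in 1 of the 11, against 11% and 24.2% of all genes. Of all 3524 genes, 1762 were lower after centring, 1783 with the trimmed mean factor and 1067 with equal sums. The split of 9 lower and 2 higher was the same as deposited, after centring, with the trimmed mean factor and with equal sums. In direction, sox3 and zic2a lay with these 9 and otx1 with the 2. Listed genes under a mean of 1 are not in this split: zic5 and fgfr3 were lower, en2b, sall1b and irx5a higher, and pou3f3a equal.

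**Figure D3:**
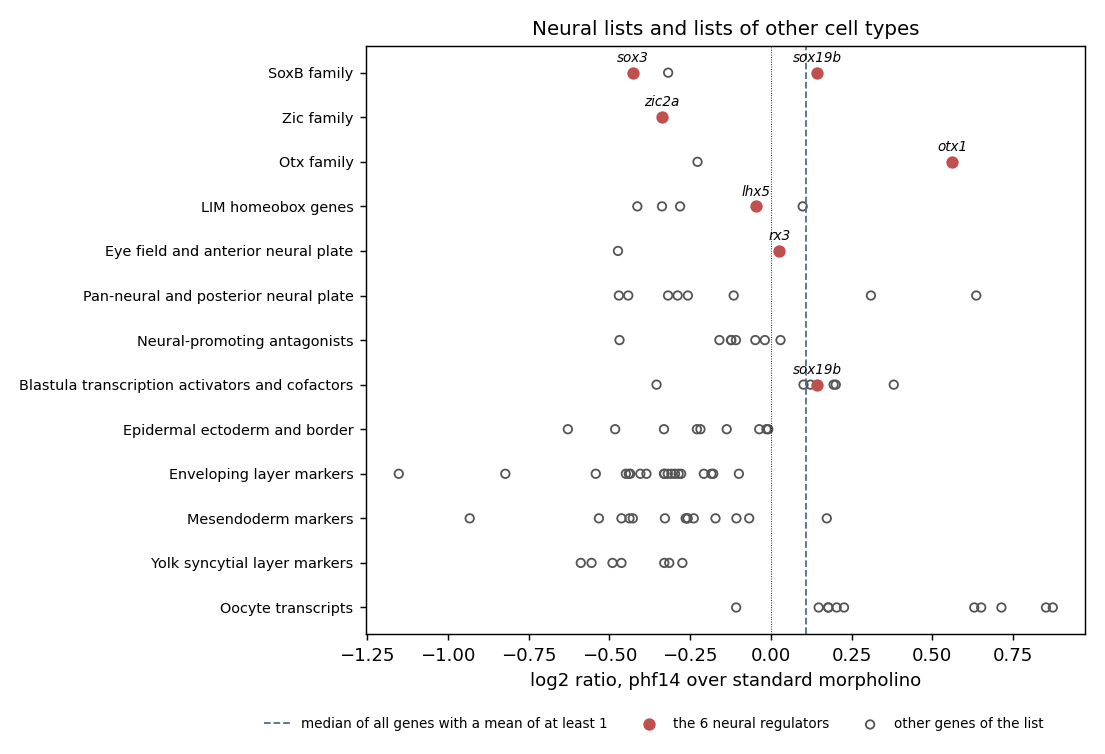
Log2 ratio of the phf14 over the standard morpholino library (horizontal axis, on values plus 1) for each gene with a mean of at least 1 in 13 lists (rows), with the 6 neural regulators in red, other list members as open circles and the median of all genes (0.11) as a dashed line. Most neural genes lie left of the dashed line. Otx1 (0.56) lies between 0.23 and 0.63, where no oocyte transcript lies, and below her5 (0.64) of the pan-neural list.

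Partners and inputs of the 6 genes were read in the same way. Of 16 blastula transcription activators and cofactors 7 are listed, with a median log2 ratio of 0.14, and sox19b is the gene at that median. Of these 7 genes 6 were higher in the phf14 morpholino library as deposited, where 62.3% of all genes were. After centring on the median gene 5 were higher, where 1762 of all genes were, and the median was 0.03. With the trimmed mean factor 4 were higher, where 1741 of all genes were, and the median was 0.0001. With equal sums 6 were higher and the median was 0.23, where 2457 of all 3524 genes were higher. How far this list lay above 0 thus depends on the scaling, and it has no clear direction across scalings. The Nodal effector gene smad2 was at 32.94 in the phf14 morpholino library and 25.07 in the standard morpholino library (log2 ratio 0.38), and eomesa, a maternal T-box gene, was at 22.38 and 19.34 in the same order (0.20). The exception was the TATA-binding protein gene tbp (-0.35), and the acetyltransferase gene ep300b had 0.10. Pou5f3 and nanog were not analysed here.

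The next list joins secreted and membrane antagonists of BMP, Wnt and Nodal signals, which favour neural fate, with admp, which is not an antagonist. Of its 28 symbols 8 are listed, admp among them, and 7 of the 8 were lower. The share of lower genes was 37.2% over all genes and 73.1% in the bin with the highest values, which holds 5 of the 8. Their median log2 ratio was -0.12, and 8 of the 8 were lower after centring but 5 with equal sums. Of all 3524 genes 1762 were lower after centring and 1067 with equal sums. The BMP antagonist gene chrd was at 57.01 in the phf14 morpholino library and 62.19 in the standard morpholino library. The range ran from notum1a, which encodes a Wnt-inactivating enzyme (-0.47), and admp (-0.16), a BMP ligand gene of the organizer, to frzb (-0.02) and dkk1b (0.03), both genes of Wnt antagonists. Genes of the epidermal ectoderm and its border, the alternative fate, were lower in 9 of 9 genes with a mean of at least 1, with a median log2 ratio of -0.22. Here too the shares to set beside this are 37.2% of all genes and 73.1% in the bin with the highest values. The bin with the highest values holds 5 of these 9 genes. They ran from the ventral homeobox gene eve1 (-0.63) and dlx3b (-0.48), a gene of the neural plate border, to the ventral repressor gene vox and msx1b, both at -0.01. With equal sums 6 of the 9 were lower, as were 1067 of the 3524 genes. Of the 11 listed genes of this list, tp63 and msx3 were under a mean of 1, and both were higher. The value of tp63 was 1.02 in the phf14 morpholino library and 0.92 in the standard morpholino library, and that of msx3 1.06 and 0.81. With them kept, 9 of the 11 were lower, against 1664 of all 4591 listed genes, and the median was -0.14. The keratin gene krt4 is in this list and also in the list of enveloping layer markers. Thus sox3 and zic2a, with -0.43 and -0.34, lay within the range of this mixed epidermal, border and ventral list. The log2 ratio of otx1 lay above all 9 of its genes.

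Markers of other cell types of the whole embryo differed between the libraries as well. Many of them belong to the bin with the highest values, where 73.1% of the genes were lower, against 37.2% of all genes: 12 of the 19 enveloping layer markers below, 11 of the 14 mesendoderm markers, 6 of the 7 yolk syncytial layer markers and 1 of the 11 oocyte transcripts. Enveloping layer markers were lower in 19 of 19 listed genes out of 27, from the envoplakin gene evpla (-1.15) and agr1 (-0.82) to the claudin genes cldnb (-0.18) and cldne (-0.10). Their values summed to 2565 in the phf14 morpholino library and 3173 in the standard morpholino library, a ratio of 0.808. Mesendoderm markers were lower in 13 of 14 (12 with equal sums, where 1067 of all 3524 genes were lower). They ran from mespab (-0.93) and tbxta (-0.53) to fscn1a (-0.07) and gsc (0.17). Their ratio of sums was 0.846 (1228 in the phf14 and 1452 in the standard morpholino library).

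Yolk syncytial layer markers were lower in 7 of 7 genes with a mean of at least 1, from hnf4a (-0.59) and slc26a1 (-0.56) to apoeb (-0.31) and mxtx1 (-0.27). Their ratio of sums was 0.786 (1464 in the phf14 and 1863 in the standard morpholino library). Oocyte transcripts were higher in 10 of 11, where 62.3% of all genes were higher as deposited. They ran from org (-0.11) and mos (0.15) to bmp15 (0.85) and btg4 (0.87), with a ratio of sums of 1.41 (174 in the phf14 and 123 in the standard morpholino library). No listed marker of these 4 lists was at 0 in either library. The ratios of sox3 (0.743) and zic2a (0.773) were near those of the enveloping layer and yolk syncytial layer sums, and that of otx1 (1.52) was nearer to the oocyte sum. Such sums weigh genes by value: apoeb alone gave 1090 of the 1464 in the phf14 morpholino library. In the oocyte sum, cldnd alone gave 80.75 of the 174 in the phf14 and 51.83 of the 123 in the standard morpholino library. By median log2 ratio the enveloping layer list stood at -0.33, the yolk syncytial layer list at -0.46 and the oocyte list at 0.23. The log2 ratio of otx1, 0.56, lay above that oocyte median. The part of these other cell types and of oocyte RNA in the values of the 6 genes was not tested.

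The direction of sox3, zic2a and otx1 was the same under every scaling run. A pseudocount can change the size of a log2 ratio but not its direction. The log2 ratio of sox3 ranged from -0.58 to -0.34, that of zic2a from -0.47 to -0.25 and that of otx1 from 0.42 to 0.65. The sign of rx3 turned with centring on the median gene (-0.08) and that of lhx5 with scaling to equal sums (0.02), and sox19b came to 0.00 with a trimmed mean factor. The directions of rx3 and lhx5 thus depend on the scaling, and sox19b was at or above 0 under all of them.

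**Figure D4:**
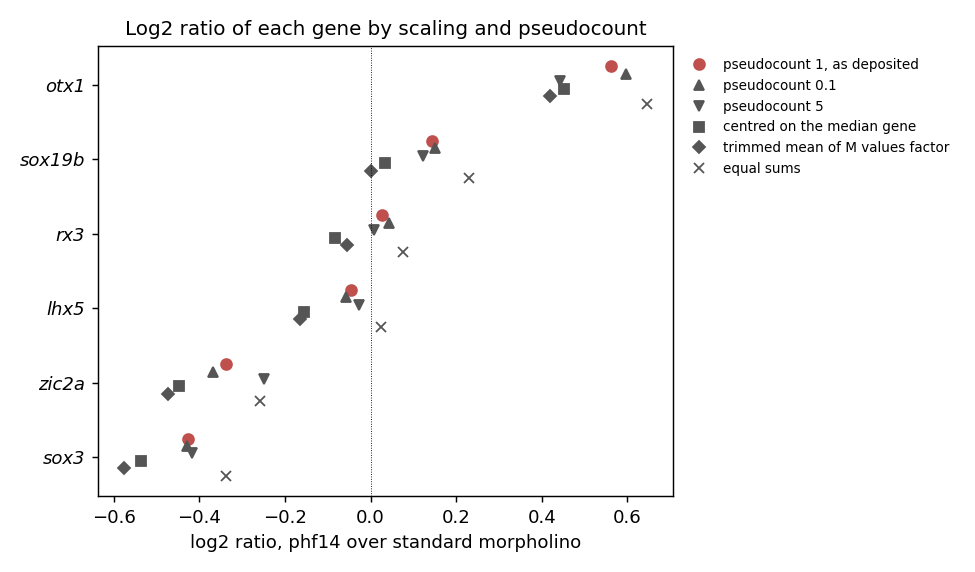
Log2 ratio of the phf14 over the standard morpholino library (horizontal axis) of each of the 6 genes (rows) with the values as deposited and a pseudocount of 1 (red) and with 2 other pseudocounts and 3 scalings (grey symbols). Otx1 stays between 0.42 and 0.65, sox3 and zic2a stay below 0, and sox19b, rx3 and lhx5 reach or cross 0.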

How the data were processed

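Messenger RNA of whole embryos was sequenced in 2 libraries, 1 per morpholino. The authors deposited 1 normalised expression signal per gene, titled only as expression per the file headers, with at most 2 decimals. The sources used here do not give the scale, aligner, genome build or counting, and the depth is unknown. The 6 genes were found by symbol. Their Ensembl identifiers all matched the gene name table. Log2 ratios are log2(value + 1) of the phf14 morpholino library minus that of the standard morpholino library, over 3524 genes whose mean was at least 1. With 1 library per group no test was run. Each gene was also ranked among the 200 genes nearest to it in mean level.

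The 6 genes and the 16 gene lists (335 genes, of which 112 are listed) were chosen with earlier results of these data known. From the SoxB, Zic, Otx and LIM homeobox lists every listed gene is named, from the other lists up to 2 genes at each end, and for each of the 6 genes its 2 nearest in value. Other genes with values in the text (sox9b, sox5, sox8b, irx5a, sall1b, pou3f3a, fgfr3, en2b, chrd, tp63, msx3, cldnd) were named after their values were seen. Alternatives comprised other pseudocounts, scalings and filters. The calculation was checked on simulated data (Python 3.11.15, pandas 2.3.3, numpy 2.4.6). Planned sequence comparisons were not run, since no sequences were used here.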

Additional observations from a re-analysis of the deposited data

How the results depend on the processing

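Of the 40 values of the 6 genes under the alternatives, 3 changed sign: rx3 with centring on the median gene (-0.0835) and with the trimmed mean of M values factor (-0.0551), and lhx5 with equal sums (0.0248). All 3 came from the 3 scalings, which gave 1 value each for the 6 genes. Only these values could change sign. Those from pseudocounts and filters could not, since neither can turn the sign of a gene's log2 ratio. The median over the 6 genes turned to 0.0504 with equal sums. The mean of the LIM cofactors was 0.0272 where the median was -0.15. With a mean of at least 5, lhx5 and rx3 had no value. None of the 30 pair differences under other pseudocounts changed sign. The counts over all genes depended on the settings, at a log2 ratio of 0.32 (853 higher and 387 lower), 1.5-fold (174 and 100) and 2-fold (12 and 17). A pseudocount of 0.1 gave 393 and 165 at 1.5-fold and 51 and 32 at 2-fold, and one of 5 gave 274 and 184, 31 and 28, and 2 and 3 in the same order of thresholds. Centring gave 485 and 652 at 0.32 and 83 and 175 at 1.5-fold. The trimmed mean factor gave 445 and 696, then 71 and 190, and 7 higher at 2-fold. Equal sums gave 286 and 66 at 1.5-fold. A mean of at least 5, which leaves 1683 genes, gave 401 and 222, 92 and 54, 5 and 7, and 946 higher and 734 lower in all. Apart from the smaller number of genes, the cause was not tested. Centring and the trimmed mean factor moved the split of all genes toward lower values, and 4 of the 6 genes were then lower, against 3 as deposited and 2 with equal sums. No paired analysis was possible because there is a single library in either group, which also means that leaving one out was not possible. Sequencing depth is unknown.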

Other observations

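Outside the SoxB group, 4 of 17 other Sox genes are listed. The endoderm gene sox32 was at 30.31 in the phf14 morpholino library and 38.30 in the standard morpholino library (log2 ratio -0.33), close to sox3, whereas sox9b, a gene of cartilage and neural crest, was at 3.22 and 2.61 in the same order (0.23). The other 2, sox5 and sox8b, were under a mean of 1. Sox5 was at 0.73 in the phf14 morpholino library and 0.93 in the standard morpholino library, and sox8b at 0.48 and 0.12. Cofactors of LIM homeobox proteins were split. The adaptor gene ldb1a was at 49.97 in the phf14 morpholino library and 55.61 in the standard morpholino library (-0.15) and lmo1 at 3.72 and 4.94 in the same order (-0.33). The LIM-only gene lmo4a had 3.26 in the phf14 morpholino library and 1.88 in the standard morpholino library (0.56), the same log2 ratio as otx1 at a lower value. The 4 listed housekeeping genes were all lower as deposited (2 of 4 with equal sums), with a median log2 ratio of -0.13, from tbp (-0.35) and eef1a1l1 (-0.19) to rpl13a (-0.07) and ppiab (-0.02). Of all 3524 genes 37.2% were lower as deposited, and 1067 were lower with equal sums. All 4 housekeeping genes belong to the bin with the highest values, where 73.1% were lower and the median log2 ratio was -0.15.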
